A study of Mus musculus with 8 samples.

Results

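The genes described here are 10 members of the NRF2 and glutathione system, taken by symbol from a table of 55487 mouse genes. They are the regulators Nfe2l2, Keap1 and Bach1, the cystine transporter chain Slc7a11, the glutathione enzymes Gclc, Gclm, Gss and Gsr, and the NAD(P)H enzymes Nqo1 and Me1. All 10 were listed in the table on a single row each. They were chosen by name, with earlier results of these data known. RNA was sequenced from J774A.1 cells, a mouse macrophage line, that had been exposed to lipopolysaccharide (LPS, 1 μg/mL), a bacterial cell wall component, for 24 h. The LPS group (n = 4 libraries) received LPS alone and the LPS + UDCA group (n = 4 libraries) received LPS together with ursodeoxycholic acid (UDCA, 1 mM), a secondary bile acid. Every library therefore carried LPS, and the values compare levels under LPS, since no library without LPS was analysed here.

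NRF2, the product of Nfe2l2, is a transcription factor that is made continuously and is held back by KEAP1, an adaptor that hands it to a CUL3 ubiquitin ligase. When electrophiles or oxidants modify KEAP1, NRF2 escapes breakdown, pairs with small MAF proteins and binds antioxidant response elements, which BACH1, a heme-sensitive repressor, can also occupy. Glutathione, the main soluble thiol of the cell, is built from cysteine, glutamate and glycine, and the system is known in macrophages for buffering the oxidants made after LPS.

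Values are TPM, in which reads are divided by gene length and scaled to a common library total, so levels can be compared between genes. Changes are differences in mean log2(TPM + 1) between LPS + UDCA and LPS, which makes the change of a weakly expressed gene look smaller than its TPM ratio. Genes were tested with limma and are called at an FDR under 0.05, and separately at an FDR under 0.05 with a fold change of at least 2. Listed values summed to between 973190 and 977485 TPM in the LPS libraries and to between 958918 and 962737 TPM in the LPS + UDCA libraries. TPM keeps no read number, so depth is unknown and the errors are the spread between libraries, which may be technical since no label states separate cultures. Of 12 macrophage markers, 11 had a mean of at least 1 TPM in each group and Mertk was listed at 0 in all libraries. The summed level of these markers was 4973 to 5269 TPM with LPS and 2621 to 2937 TPM with LPS + UDCA. The sum leans on abundant markers such as Lyz2, which fell from 1988 to 435.5 TPM on average. At the FDR 4 of them rose and 7 fell, beside 40.2% higher and 32.3% lower of all genes tested. Those that rose were Fcgr1 (log2 change 1.48), Adgre1 (1.275), Ptprc (0.47) and Spi1 (0.19). Of 16 markers of epithelial, mesenchymal, endothelial, lymphoid and liver cells, 15 stayed under 1 TPM in every LPS library and 16 in every LPS + UDCA library, with sums of 3.61 to 3.96 and 0.34 to 0.81 TPM. Fewer cells of a kind and less RNA per cell cannot be told apart in such bulk samples, and the part of the marker shift in the results was not tested.

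Of the 10 genes, 7 were upregulated by UDCA at the FDR, 0 were downregulated, Gss and Slc7a11 did not pass, and Nqo1 fell under the minimum of 1 TPM on average that a gene needed to enter the fit. Over the 11796 genes tested, 40.2% were higher and 32.3% lower at the FDR. With the 2-fold minimum, 5 of the genes (Bach1, Gclm, Gclc, Nfe2l2 and Me1) were upregulated, against 8.71% of all genes tested, and 0 were downregulated, against 8.44%. In 7 of the 9 tested members every LPS + UDCA library lay above every LPS library, as was so for 37.0% of the genes tested. With Nqo1, which was not tested, it was 8 of the 10 genes. The median log2 change of the 9 tested members was 1.03, beside 0.08 over all genes tested. Since the genes were chosen with earlier results of these data known, these values do not test whether the set stands out. Nfe2l2 and Me1 sat close to the 2-fold minimum, and with median-of-ratios scaling both fell under it (log2 changes 0.96 and 0.95), which left 3 genes past both thresholds.

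**Figure D1:**
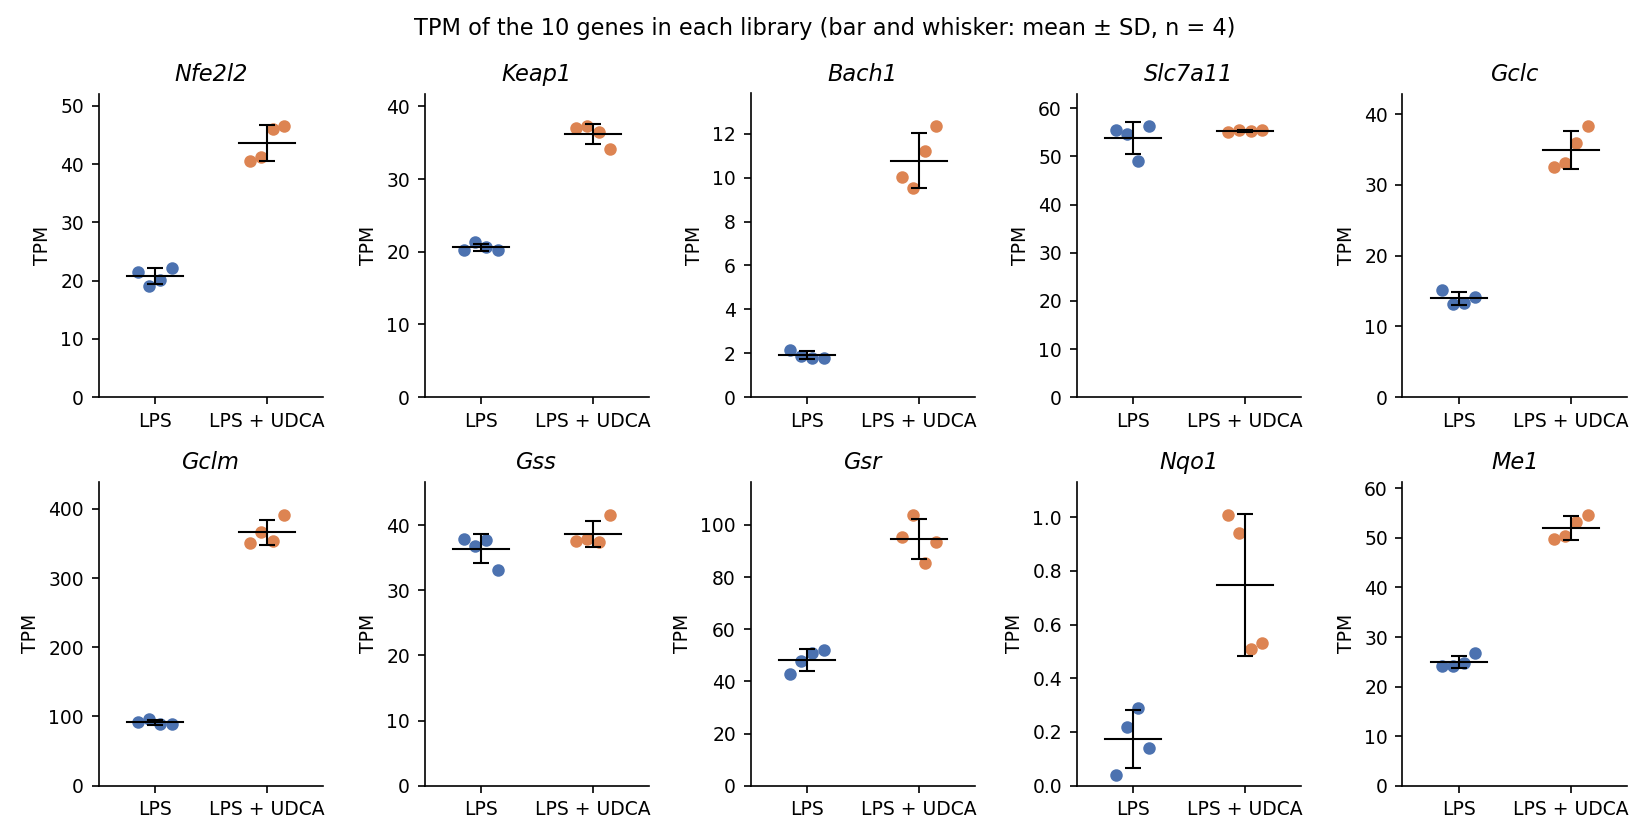
TPM (linear axis from 0) of each of the 10 genes in the 4 LPS and 4 LPS + UDCA libraries, with points for libraries and bars with whiskers for mean ± SD (n = 4). The groups are apart in 8 genes, and overlap in Slc7a11 and Gss.

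The genes of all 3 regulators rose. Nfe2l2 (ENSMUSG00000015839), on chromosome 2 from 75675513 to 75704641 of GRCm38, had 21.47, 19.15, 20.15 and 22.25 TPM in LPS replicates 1 to 4 and 40.60, 41.21, 46.05 and 46.55 TPM in LPS + UDCA replicates 1 to 4. The lowest UDCA library was well above the highest LPS library. The mean went from 20.75 ± 1.38 to 43.6 ± 3.13 TPM (SD, n = 4), a log2 change of 1.03 (standard error, SE, 0.07, limma adjusted p = 9.8e-07). Without LPS replicate 2 the log2 change was 0.999, just under the 2-fold minimum. The gene holds a small nuclear RNA gene, Gm24996, within an intron.

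Keap1 (ENSMUSG00000003308), which encodes the adaptor for NRF2 breakdown, lies on chromosome 9 from 21229730 to 21239361. Its level was 20.19, 21.34, 20.61 and 20.31 TPM in the LPS libraries and 36.98, 37.30, 36.46 and 34.17 TPM in the LPS + UDCA libraries. The libraries of each group were close together and the groups did not meet. The log2 change was 0.78 (SE 0.05, limma adjusted p = 5.5e-07), a ratio of mean TPM of 1.76. The antisense gene Gm16754 overlaps its exons and shares 9.02% of its 31-base words, and was listed at 4.58 to 6.87 TPM. Whether counting used the strand is not given in the sources used here.

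Bach1 (ENSMUSG00000025612), on chromosome 16 from 87698945 to 87733346, encodes the repressor that competes with NRF2 for its binding elements. It had 2.16, 1.89, 1.79 and 1.78 TPM with LPS and 10.02, 9.52, 11.20 and 12.35 TPM with LPS + UDCA. It was the least abundant of the tested members in both groups, and its groups were far apart. The ratio of mean TPM was 5.66 and the log2 change 2.01 (SE 0.10, limma adjusted p = 1.6e-07), higher than that of 99.2% of the genes tested. None of the 31-base words of its transcripts occurred in another annotated gene.

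Nfe2l2 and Keap1 were level with each other under LPS and drew slightly apart with UDCA. The ratio of Nfe2l2 to Keap1 TPM was 1.06, 0.897, 0.978 and 1.10 in LPS replicates 1 to 4, and 1.10, 1.10, 1.26 and 1.36 in LPS + UDCA replicates 1 to 4. On the log2 scale the mean ratio was 0.01 ± 0.13 with LPS and 0.27 ± 0.15 with LPS + UDCA (SD, n = 4). The groups just failed to overlap, with LPS replicate 4 at 0.132 and LPS + UDCA replicate 1 at 0.135, and the difference of 0.26 had p = 0.029 in an exact two-sided permutation test. This is the smallest p that 4 against 4 libraries allow, and it was 0.029 after adjustment over the 3 ratios tested. The ratio of Bach1 to Nfe2l2, computed after the values were seen and not tested, was 0.08 to 0.101 with LPS and 0.231 to 0.265 with LPS + UDCA. Bach1 thus stayed below Nfe2l2 in every library, at a larger fraction of the Nfe2l2 level with UDCA.

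The subunits of glutamate-cysteine ligase, which joins glutamate to cysteine in the rate-limiting step of glutathione synthesis, rose together but not equally. Gclc (ENSMUSG00000032350), on chromosome 9 from 77754535 to 77794485, encodes the catalytic subunit and had 15.22, 13.20, 13.37 and 14.09 TPM with LPS and 32.58, 33.09, 35.89 and 38.33 TPM with LPS + UDCA. The groups were apart by more than the spread in either. Its log2 change was 1.26 (SE 0.07, limma adjusted p = 3.4e-07). Gclm (ENSMUSG00000028124), on chromosome 3 from 122245557 to 122270732, encodes the modifier subunit, which raises the activity of the catalytic subunit and eases its inhibition by glutathione. It had 92.52, 95.72, 88.79 and 88.88 TPM with LPS and 351.14, 367.32, 353.67 and 391.96 TPM with LPS + UDCA. Gclm was the most abundant of the 10 genes in both groups. Its log2 change was 1.99 (SE 0.04, limma adjusted p = 1.9e-09), reached by 94 of the genes tested, itself included. Of the 31-base words of Gclm transcripts, 6.82% occur in other genes, among them 3.55% in Ppia and 3.38% in the pseudogene Gm10123, which were listed at 1728.27 to 2070.67 and 1969.8 to 2378.28 TPM, and 4.47% in Gm17494 on the opposite strand. Exons of Gclm overlap those of Gm17494 and, on the same strand, those of the transcribed pseudogene Gm6061.

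The modifier therefore exceeded the catalytic subunit by more with UDCA. The ratio of Gclm to Gclc TPM ran from 6.08 to 7.25 in the LPS libraries and from 9.85 to 11.1 in the LPS + UDCA libraries. The mean log2 ratio went from 2.71 ± 0.11 to 3.39 ± 0.08 (SD, n = 4), a difference of 0.68 (exact two-sided permutation test, p = 0.029, and 0.029 adjusted over the 3 ratios).

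Gss and Slc7a11, on either side of that step, did not pass the test. Gss (ENSMUSG00000027610), on chromosome 2 from 155563181 to 155592810, encodes glutathione synthetase, which adds glycine. It had 37.85, 36.80, 37.76 and 33.12 TPM with LPS and 37.53, 37.85, 37.41 and 41.63 TPM with LPS + UDCA, and the groups overlapped. The log2 change was 0.08, with a 95% interval from -0.05 to 0.21 (adjusted p = 0.22, limma). The genes Acss2, Gssos1 and Gssos2 overlap its exons on the opposite strand, and 12.8% of its 31-base words occur in other genes.

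Slc7a11 (ENSMUSG00000027737) encodes the light chain of the cystine-glutamate exchanger and spans chromosome 3 from 49892526 to 50443614. Its level was 55.51, 54.58, 49.05 and 56.32 TPM with LPS and 55.09, 55.59, 55.23 and 55.42 TPM with LPS + UDCA. The UDCA libraries all fell inside the range of the LPS libraries. The log2 change was 0.04, with a 95% interval from -0.07 to 0.15 (adjusted p = 0.48, limma), and its sign turned with median-of-ratios scaling (-0.04) and without LPS replicate 3 (-0.003). Both intervals end below that of Gclc, which starts at 1.11.

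The heavy chain of the same exchanger, Slc3a2, which also serves other amino acid transporters, behaved differently. It had 447 ± 11.4 TPM (SD, n = 4) with LPS, from 439.25 to 464.34, and 895 ± 8.81 TPM with LPS + UDCA, from 883.02 to 904.25. Its log2 change was 0.999 (SE 0.03, limma adjusted p = 5.6e-09), at the edge of the 2-fold minimum, which it passed without LPS replicate 2 (1.02) and without LPS + UDCA replicate 2 (1.005), with quantile normalization (1.13) and with rescaled libraries (1.02). The ratio of Slc7a11 to Slc3a2 TPM was 0.111 to 0.127 with LPS and 0.0611 to 0.063 with LPS + UDCA. The mean log2 ratio fell by 0.96 (exact two-sided permutation test, p = 0.029, and 0.029 adjusted over the 3 ratios).

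**Figure D2:**
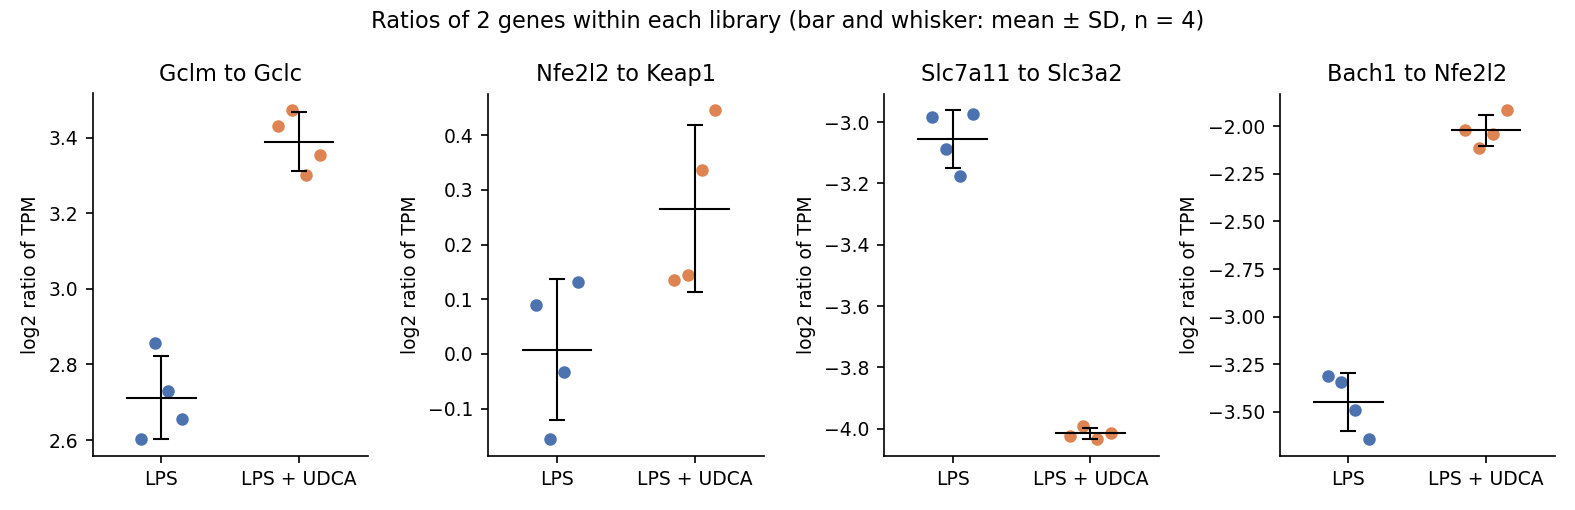
Log2 ratio of the TPM of 2 genes within each library, for Gclm to Gclc, Nfe2l2 to Keap1, Slc7a11 to Slc3a2 and Bach1 to Nfe2l2, with points for libraries and bars with whiskers for mean ± SD (n = 4). The axes differ between panels and do not start at 0. The LPS and LPS + UDCA libraries are apart in each panel, by the least for Nfe2l2 to Keap1.

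Among the genes that return glutathione to its reduced form or supply NAD(P)H, Gsr and Me1 rose. Gsr (ENSMUSG00000031584), on chromosome 8 from 33652523 to 33698163, encodes glutathione reductase, which uses NADPH to reduce oxidized glutathione. It had 42.66, 47.63, 50.74 and 51.90 TPM with LPS and 95.40, 104.00, 85.58 and 93.31 TPM with LPS + UDCA. The lowest UDCA library was well above the LPS libraries. The log2 change was 0.96 (SE 0.07, limma adjusted p = 3.5e-06), just under the 2-fold minimum, and it was 1.004 without LPS + UDCA replicate 3 and 1.002 with quantile normalization.

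Me1 (ENSMUSG00000032418), on chromosome 9 from 86581371 to 86695953, encodes cytosolic malic enzyme, which makes NADPH from malate. It had 24.22, 24.13, 24.78 and 26.78 TPM with LPS and 49.71, 50.43, 53.12 and 54.72 TPM with LPS + UDCA, with the groups apart. The log2 change was 1.03 (SE 0.05, limma adjusted p = 2.1e-07). Of the 31-base words of Me1, 36.9% occur in other genes, most of them in the pseudogene Gm7049, listed at 0 to 0.11 TPM, and the noncoding gene Gm48795, listed at 0 to 0.58 TPM. A smaller part, 4.07%, occurs in the pseudogene Gm7329, whose listed values were uneven, from 0 to 32.25 TPM, so the split of reads between these genes is uncertain. The antisense gene A330041J22Rik also overlaps exons of Me1.

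Nqo1 (ENSMUSG00000003849), on chromosome 8 from 107388225 to 107403206, encodes a quinone reductase that is widely used as a readout of NRF2. In these cells it was barely detected, at 0.04, 0.22, 0.29 and 0.14 TPM with LPS and 1.01, 0.94, 0.51 and 0.53 TPM with LPS + UDCA. Every UDCA library was above every LPS library, although only LPS + UDCA replicate 1 reached 1 TPM. The difference in mean log2(TPM + 1) was 0.57 (exact two-sided permutation test, p = 0.029), and 1.68 with a pseudocount of 0.1. When genes below the minimum were let in, limma gave an adjusted p of 0.0052 over 23729 genes.

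**Figure D3:**
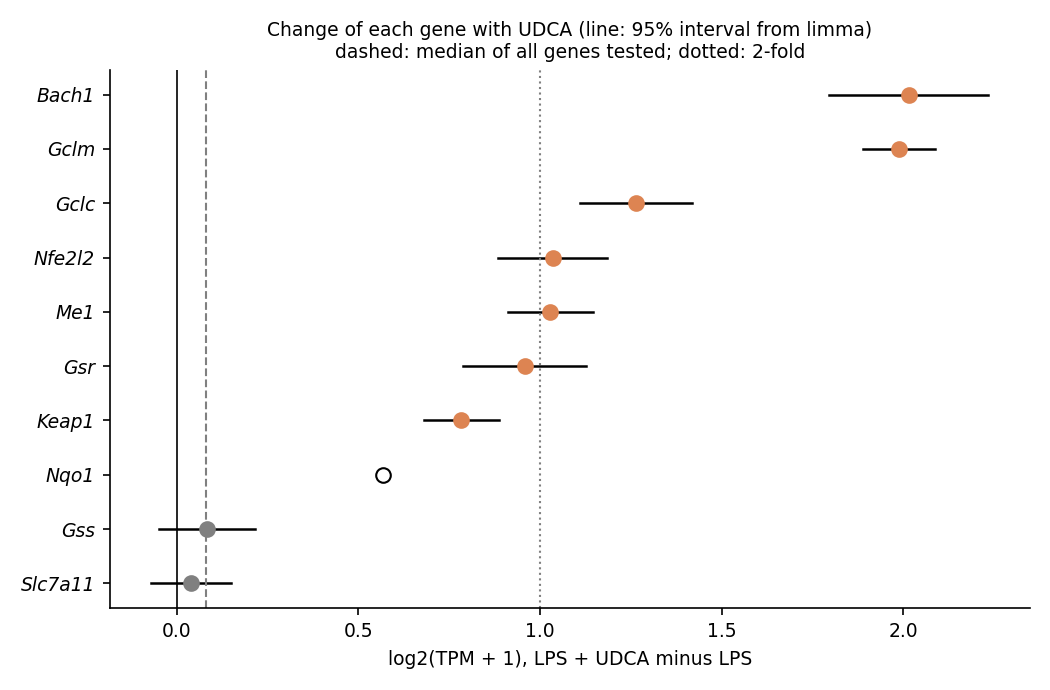
Difference in mean log2(TPM + 1), LPS + UDCA minus LPS, for the 10 genes, with the 95% interval from limma as a line. Orange points passed the FDR, grey points (Gss and Slc7a11) did not, and the open point (Nqo1) was under the TPM minimum and has no interval. Bach1 and Gclm lie near 2, and 5 genes lie from 0.78 to 1.26.

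The order of the levels changed between the groups. With LPS it ran from Gclm (91.5 TPM) through Slc7a11 (53.9), Gsr (48.2), Gss (36.4), Me1 (24.98), Nfe2l2 (20.75), Keap1 (20.6), Gclc (13.97) and Bach1 (1.91) to Nqo1 (0.17). The libraries of Slc7a11 and Gsr overlapped, as did those of Nfe2l2 and Keap1. With LPS + UDCA it ran from Gclm (366 TPM) through Gsr (94.6), Slc7a11 (55.3), Me1 (52.0), Nfe2l2 (43.6), Gss (38.6), Keap1 (36.2), Gclc (34.97) and Bach1 (10.8) to Nqo1 (0.75). Here Nfe2l2 and Gss overlapped, and so did Keap1 and Gclc, while the other neighbours did not. Gss stood above Me1 in the LPS libraries and below it in the LPS + UDCA libraries.

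The core of the antioxidant response element, TGACNNNGC, was searched on both strands of RefSeq promoter windows (GRCm38.p6, 250 bases before to 50 after a start site). A window was at hand for 8 of the 10 genes. The motif occurred in 3 of these 8, Nfe2l2, Gclm and Me1, in 11 of 31 genes of the list of other NRF2 targets described below, in 16.9% of the tested genes with a window and in 12.4% of all 32851 windows. A match is a string of letters, not a shown binding site, and the windows do not reach distal elements. The stretches that hold the motif are given 5′ to 3′ on the strand of the gene with the motif in capitals. Whether the motif goes with the rise of a gene was not tested. The Nfe2l2 stretch is chr2:75704814-75704913 (minus strand), with TGACTCCGC from -240 to -232 of the start site. The Gclm stretch is chr3:122245377-122245476 (plus strand), with the motif on the opposite strand (TGACGGTGC) from -134 to -126. The Me1 stretch is chr9:86695905-86696004 (minus strand), with TGACTCAGC from -6 to 3, which also holds the AP-1 motif TGACTCA.
Nfe2l2: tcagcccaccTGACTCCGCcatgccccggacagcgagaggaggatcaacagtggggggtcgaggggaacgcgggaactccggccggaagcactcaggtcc
Gclm: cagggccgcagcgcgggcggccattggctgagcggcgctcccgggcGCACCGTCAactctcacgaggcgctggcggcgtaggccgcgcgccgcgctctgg
Me1: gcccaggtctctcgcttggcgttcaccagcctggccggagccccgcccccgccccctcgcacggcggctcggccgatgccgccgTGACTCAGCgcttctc
The windows of Keap1, Bach1, Gss, Slc7a11 and Nqo1 did not hold these letters, nor did a second window of Me1. Of these, Keap1 and Bach1 also rose at the FDR.

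The pathway around these 10 genes was described by 5 lists, also chosen with earlier results of these data known. In each, the genes with the highest and lowest changes past both thresholds are named. Exons of Cul1, Sqstm1, Mafg, Mafk, Slc48a1, Csad, Aldh1l2, Shmt1 and G6pdx overlap those of another gene, and their levels are uncertain to that extent. Genes that act with NRF2 or on its breakdown moved in both directions. Of 32 listed partners, relatives and degradation factors, 28 were tested, of which 17 were higher and 7 lower at the FDR, beside 40.2% higher and 32.3% lower of all genes tested. Past both thresholds 6 were higher and 1 lower, beside 8.71% and 8.44% of all genes. The median log2 change was 0.31, beside 0.08 over all genes. No difference between a list and the other genes was tested. The highest were Cul1 (log2 change 1.47), Sqstm1 (1.39), Crebbp (1.31) and Nfe2l1 (1.10). Cul1 encodes the scaffold of another ligase that takes NRF2, Crebbp a coactivator, and Nfe2l1 a relative of NRF2. Sqstm1 encodes p62, an autophagy receptor that binds KEAP1, and went from 4044 to 10600 TPM on average. The lowest was Brca1 (-1.18), a DNA repair gene whose product binds NRF2. Some genes were named for their role, after their values were seen. Of the small MAF partners, Mafg rose (1.04, adjusted p = 9.2e-08, limma), Mafk rose less (0.30, adjusted p = 2e-04) and Maff fell (-0.33, adjusted p = 0.00029). In the KEAP1 ligase, Rbx1 rose by 0.32 (adjusted p = 2.7e-05, limma) and Cul3 by 0.36 (adjusted p = 0.024). The call for Cul3 was lost without any of LPS replicates 2, 3 and 4 or LPS + UDCA replicates 3 and 4, and with the replicate block (adjusted p = 0.052), median-of-ratios scaling (0.054) or no filter (0.056).

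Of 41 other known NRF2 targets, 31 were tested and 10 were under the TPM minimum. At the FDR 20 were higher and 5 lower, beside 40.2% and 32.3% of all genes tested. Past both thresholds 11 were higher and 1 lower, beside 8.71% and 8.44%, and the median log2 change was 0.56. Srxn1, which encodes sulfiredoxin, rose most, from 44.8 to 254 TPM (log2 change 2.48, adjusted p = 9.6e-10, limma). Next were Slc48a1 (1.78), a heme transporter, Ugt1a6a (1.71), a glucuronosyltransferase, and Htatip2 (1.64), an oxidoreductase. Of the 31-base words of Ugt1a6a, 53.0% occur in other genes, since the Ugt1a genes share exons. Lpcat4, a lysophospholipid acyltransferase, fell (-1.41) and was the only tested target lower past both thresholds. Named after their values were seen, Hmox1 had a log2 change of 1.599 (heme oxygenase) and Txnrd1 one of 0.56 (thioredoxin reductase). Beside Lpcat4, the targets lower at the FDR were Prdx6 (-0.78), Ugdh (-0.75), Akr1b8 (-0.47) and Cbr1 (-0.295). Txn1 (-0.03), Gstm1 (-0.08) and Ephx1 (-0.15) were among those that did not pass. Mafg and Sqstm1 stand in this list and the preceding one.

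**Figure D4:**
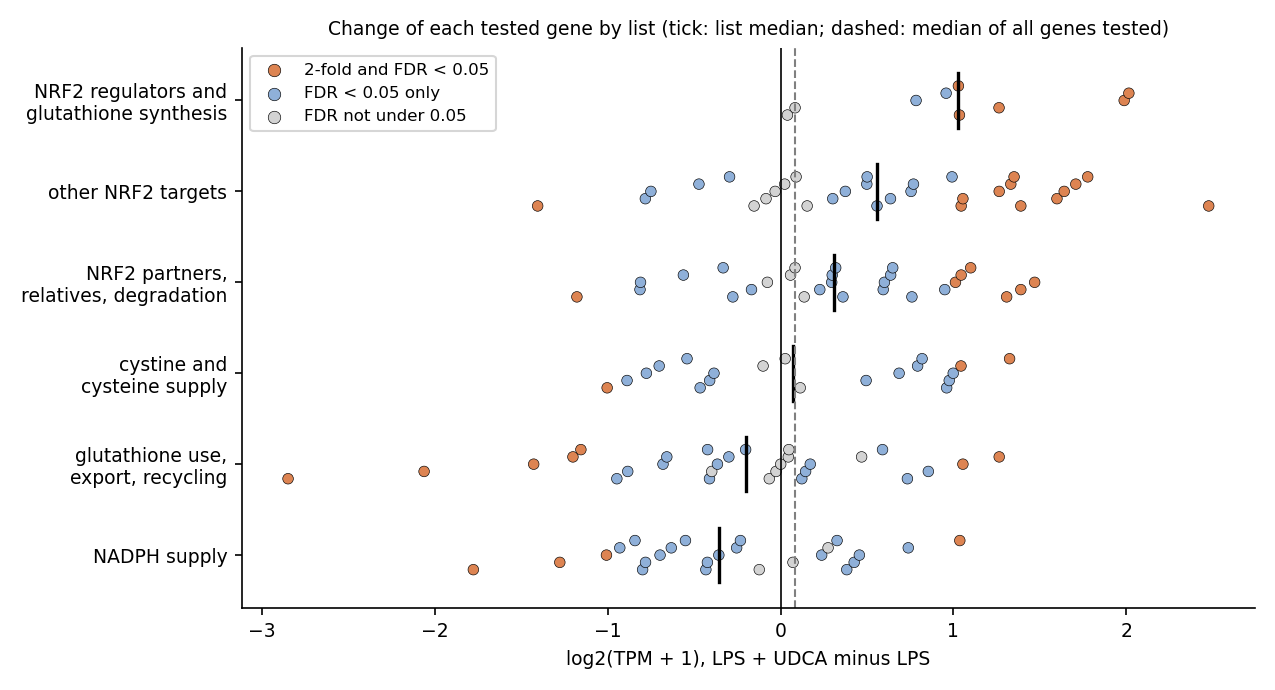
Difference in mean log2(TPM + 1), LPS + UDCA minus LPS, for each tested gene in 6 lists, with a tick at each list median and a dashed line at the median of all genes tested (0.08). Orange points passed the FDR and the 2-fold minimum, blue points the FDR only, and grey points neither. Medians run from 1.03 for the 10 genes described here (9 tested) to -0.36 for NADPH supply.

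Of 26 genes that supply cystine or cysteine, 20 were tested. At the FDR 9 were higher and 8 lower, beside 40.2% and 32.3% of all genes tested, and the median log2 change was 0.07. Past both thresholds 2 were higher and 1 lower, beside 8.71% and 8.44% of all genes tested. The higher genes were Ctns (1.33), the lysosomal cystine exporter, and Csad (1.04), of taurine synthesis. The lower gene was Mpst (-1.003), which takes sulfur from mercaptopyruvate. Csad fell under the 2-fold minimum without LPS replicate 4 (0.94), without LPS + UDCA replicate 2 (0.94) or 4 (0.999), with median-of-ratios scaling (0.98) and with quantile normalization (0.95). Mpst did so with rescaled libraries (-0.983), without LPS replicate 2 (-0.98) or 4 (-0.995), or without LPS + UDCA replicate 1 (-0.96), 2 (-0.998) or 4 (-0.996). Cth, which makes cysteine from cystathionine and was named after its value was seen, fell by 0.89 on the log2 scale (adjusted p = 9.3e-07, limma).

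Of 38 genes that use, export, recycle or break down glutathione, 29 were tested. At the FDR 8 were higher and 14 lower, beside 40.2% and 32.3% of all genes tested. Past both thresholds 2 were higher and 5 lower, beside 8.71% and 8.44%, and the median log2 change was -0.20. Glrx, which encodes glutaredoxin, fell most, from 442 to 60.7 TPM (log2 change -2.85, adjusted p = 1.7e-09, limma). It was followed by Anpep (-2.06), a cell surface peptidase that can split cysteinylglycine, Gpx1 (-1.43), a glutathione peroxidase, and Glrx5 (-1.20), which acts in iron-sulfur cluster assembly. Higher past both thresholds were Abcc1 (1.26), an exporter of glutathione and its conjugates, and Esd (1.06), which hydrolyses S-formylglutathione. Esd fell under the 2-fold minimum with median-of-ratios scaling (0.976). Both also stand in the list of NRF2 targets.

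Of 28 rows for NADPH supply, 25 were tested. At the FDR 7 were higher and 15 lower, beside 40.2% and 32.3% of all genes tested, and the median log2 change was -0.36. Past both thresholds, beside 8.71% and 8.44% of all genes, Aldh1l2 (1.04), a mitochondrial folate dehydrogenase, was higher, and Shmt1 (-1.78), a serine hydroxymethyltransferase, Me2 (-1.28), the mitochondrial malic enzyme, and Idh2 (-1.01), mitochondrial isocitrate dehydrogenase, were lower. Aldh1l2 fell under the 2-fold minimum with median-of-ratios scaling (0.96), which left no higher gene past both thresholds. Idh2 did so without LPS replicate 1 (-0.986) or LPS + UDCA replicate 4 (-0.98), with rescaled libraries (-0.987) and with quantile normalization (-0.985). The malic enzymes Me1 and Me2 thus changed in opposite directions. G6pdx, the entry enzyme of the pentose phosphate pathway, named after its value was seen, fell by 0.84 on the log2 scale (adjusted p = 9e-07, limma). Other genes of that pathway went both ways at the FDR. Taldo1 (0.74) and Pgd (0.33), which encodes its other NADPH-making enzyme, rose, while Tkt (-0.70), Rpia (-0.42) and Pgls (-0.23) fell.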

How the data were processed

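The authors deposited one table of TPM per gene with 1 column per library and 2 decimals. The unit was inferred from the column sums. The labels name a TruSeq RNA kit, and the submitters' processing notes name Bowtie 0.12.2 and the builds mm10 and GRCm38 without their roles. The counting program is not given in the sources used here. Genes averaging 1 TPM or more (11796) entered a fit of log2(TPM + 1) with limma 3.58.1 in R 4.3.3 (lmFit, eBayes with a mean-variance trend), with Benjamini-Hochberg adjustment over them all. The procedure was tested on simulated data. Single values were compared by exact permutation over the 70 arrangements of the libraries. No library duplicated another (28 pairs compared).

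The groups share replicate numbers. Deviations from the group means correlated by -0.04 to 0.15 for the 4 same-numbered pairs and by -0.14 to 0.16 for the 12 others. Same-numbered pairs 1, 2 and 4 gave 0.12, 0.12 and 0.15, while the highest of the others were 0.16 and 0.03. Whether same-numbered libraries share an effect was not tested. The main fit did not treat the libraries as paired, and a replicate block was run as an alternative.

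The members and lists were chosen with earlier results of these data known. Genes named were the members and, from each list, up to 4 highest and 4 lowest changes past both thresholds. Others were named for their role, or to show the range of a list, with their values already known. The alternatives and the search for overlaps covered 43 of the named genes. Left out were the macrophage markers, the ferritin genes and the pentose phosphate genes other than G6pdx. The targets named as lower at the FDR only or as not passing were left out too. Dpep2 and Nnt have 2 rows each, counted separately. Positions, overlaps and 31-base words (stretches of transcript sequence also found in other genes) are from GENCODE M21 on GRCm38. Alternatives covered scaling, filter, pseudocount, variance prior, replicate block and leaving out each library. Other steps ran in Python 3.11.15 with pandas 2.3.3, scipy 1.17.1 and matplotlib 3.10.9.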

Additional observations from a re-analysis of the deposited data

Results flagged for a closer look

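Libraries far from the other 3 of their group were sought with Dixon's test, which sets the gap to the nearest library against the whole range of the 4. Of 92 sets of 4 values, 2 passed at the 95% level, where chance gives about 1 in 20. For Gss, LPS + UDCA replicate 4 was highest at 41.63 TPM (gap over range 0.896), against 37.41 to 37.85 TPM in the others. For Slc3a2, LPS replicate 2 was highest at 464.34 TPM (gap over range 0.836).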

How the results depend on the processing

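At the FDR, 7 members were higher and 0 lower under every alternative run, except that without the filter on low values Nqo1 joined them (8 higher). Past both thresholds the count of upregulated members was 3 with median-of-ratios scaling and 4 to 6 under the others (4 without LPS replicate 2). The alternatives gave 682 values for the 43 named genes they covered. Of these values, 664 kept their direction and their side of an FDR or exact p of 0.05. A further 2 turned sign (Slc7a11) and 16 lost that call (Nqo1 and Cul3). The filter, variance prior and replicate block can alter only the error and p of a gene. Its direction was fixed in advance under those settings. The 2-fold call was less steady, and with median-of-ratios scaling it was lost by Nfe2l2 (0.959), Me1 (0.952), Csad (0.979), Esd (0.976), Aldh1l2 (0.959) and Mafg (0.967). The log2 change of Slc7a11, which was not called, was -0.038 with median-of-ratios scaling, and ran from -0.003 (without LPS replicate 3) to 0.062 with each library left out. With the replicate block, 1034 genes were higher and 1000 lower past both thresholds over the table, and 5 members were higher past both. Among the 43 genes covered, only Cul3 changed its FDR call there.

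With 3 against 4 libraries an exact permutation p cannot go below 0.057, and 4 paired differences cannot reach 0.05 either, so no ratio, nor Nqo1, could pass there. The ratio differences were 0.677, 0.257 and -0.959 for Gclm to Gclc, Nfe2l2 to Keap1 and Slc7a11 to Slc3a2. With the replicate block they are the same by construction, since pairing leaves a difference of means as it was. With each library left out they ran from 0.64 to 0.725, from 0.197 to 0.301 and from -1.0 to -0.932.

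Counts past both thresholds in small lists moved. With median-of-ratios scaling, 1 gene was higher for cysteine supply, 1 for glutathione use and 0 for NADPH supply. With a pseudocount of 0.1, 4 were higher for cysteine supply and 2 lower among the partners of NRF2. With libraries rescaled to one common sum, 0 were lower for cysteine supply. For cysteine supply, leaving out a library gave 1 to 4 higher (4 without LPS replicate 2, 1 without LPS replicate 4) and 0 to 1 lower (0 without LPS replicate 2 or 4 or LPS + UDCA replicate 1, 2 or 4). The cause was not tested. No counting error could be given, since TPM holds no depth, and this limits Nqo1 most.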
